A study of Mus musculus with 18 samples.

Results

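The genes described here encode the first signaling step of the T cell receptor (TCR). They are the CD3 chains (*Cd3d*, *Cd3e*, *Cd3g* and *Cd247*), the coreceptor *Cd4*, the kinases *Lck* and *Zap70*, and the adaptors *Lat* and *Lcp2*. The rule for the 9 genes names them and uses no measured value, although it was written with earlier results of these data known. They stand among 50600 genes of a raw count table, and all 9 were measured and tested in 18 samples of FACS-purified Foxp3+ regulatory T cells (Tregs) of mice. The study compared Tregs that had lost CD25, the alpha chain of the IL-2 receptor encoded by *Il2ra*, with Tregs that kept it.

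All mice were C57BL/6, and each sample was 1 mouse, so p-values measure the spread between mice. CD25-deficient samples are called KO. The 5 thymic KO samples came from CD25 flox mice crossed to Foxp3-YFP/Cre mice, in which Cre is driven by the *Foxp3* locus. These mice were 3–4 weeks old and were "cured", that is, protected from autoimmunity by WT splenocytes given after birth. The 5 thymic WT samples came from Foxp3/RFP reporter mice of that age. The genotype of the 4 splenic KO mice was CD25 flox/Foxp3eGFP-Cre-ERT2/R26Y. Their Cre is active only after tamoxifen, and the R26Y allele marks the cells in which it acted. The 4 splenic WT samples came from reporter controls. Tamoxifen was given at 7–10 weeks of age and cells were taken 10–14 days later. CD4+ cells were enriched on beads before sorting on the reporters, so *Cd4*, unlike the other 8 genes, encodes a protein used to isolate the cells. Thymic KO and WT mice also differed in their *Foxp3* reporter line, in Cre and in the splenocyte transfer, which is stated for KO mice alone, and these cannot be told apart from the loss of CD25. Thymic and splenic samples differed in mouse model, age, tamoxifen and the date in the column names of the table, and these cannot be told apart from the tissue.

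When a peptide bound to MHC engages the TCR, CD4 brings the kinase LCK to the complex, and LCK phosphorylates the paired tyrosines (ITAMs) in the tails of the CD3 chains and of CD247, also called CD3 zeta. ZAP-70 docks on these ITAMs and phosphorylates LAT in the membrane and SLP-76, the cytosolic adaptor encoded by *Lcp2*. LAT and SLP-76 then gather the enzymes that open the calcium, Ras and NF-kappa B pathways. Tregs depend on TCR signals for their selection in the thymus and for their suppressive function in the periphery.

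The libraries held 17239774 to 23993674 counts for thymic and 25258341 to 32639570 for splenic samples. The lowest count of any of the 9 genes in any library was 2864 (*Zap70*, thymic KO). Levels are CPM, counts scaled to a common library size, with TMM factors over all 18 samples. *Il2ra* fell in KO mice of both tissues, by 1.90 on the log2 scale among thymic (adjusted p = 0.00239) and by 1.49 among splenic Tregs (adjusted p = 1.39e-09). The counts are per gene and do not separate the deleted exon. Among thymic KO samples, mice 2 and 4 had 279.9 and 234 CPM of *Il2ra*, against 95.9 to 105 CPM in the other 3. *Foxp3* was detected in every group, with means of 503 CPM in thymic WT, 297 in thymic KO, 330.2 in splenic WT and 226 in splenic KO samples. Summed markers of B cells (10.2 to 23.9 CPM), myeloid cells (2.23 to 22.4 CPM) and erythroid and epithelial cells (11.7 to 46.6 CPM) were low in every sample beside the summed T cell and Treg identity genes (2035 to 3180 CPM). Of the 5 identity genes, which include *Il2ra* and *Foxp3*, 3 were lower and 0 higher in thymic KO Tregs at FDR < 0.01. In splenic KO Tregs 3 were lower and 1 higher. Markers of CD8 cells and immature thymocytes summed to 40.0 to 172 CPM in thymic WT, 45.6 to 98.2 in thymic KO and 8.32 to 11.1 in splenic samples. Thymic WT mouse 4 had the highest sum, and its *Rag1* level of 93.1 CPM compared with 14.0 to 28.4 CPM in the other 4 thymic WT mice.

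*Cd3g*, *Cd3d* and *Cd3e* lie side by side on chromosome 9 (GRCm38). *Cd3g* occupies chr9:44969572-44980431 on the minus strand and *Cd3d* chr9:44981786-44987339 on the plus strand, and their annotated starts are 1354 bases apart. *Cd3e* follows at chr9:44998740-45009627 on the minus strand, 11400 bases beyond the end of *Cd3d*. Their start regions are shown because only *Cd3e* of these 3 neighbours passed the test in the thymus. No fit compared the genes with each other. Each window runs from 250 bases before to 50 bases after the start of transcription, from RefSeq on GRCm38.p6, 5′ to 3′ on the strand of the gene. The windows are chr9:44981536-44981835 for *Cd3d*, chr9:45009562-45009861 for *Cd3e* and chr9:44980382-44980681 for *Cd3g*. Capitals mark matches on either strand. For ETS factors the letters searched were CAGGAA. For the E box, a site of basic helix-loop-helix factors, they were CACCTG. For RUNX factors they were TGTGGT. For GATA factors they were AGATAA, and for STAT factors TTCNNNGAA. These motifs were chosen after the values and windows were seen.
Cd3d: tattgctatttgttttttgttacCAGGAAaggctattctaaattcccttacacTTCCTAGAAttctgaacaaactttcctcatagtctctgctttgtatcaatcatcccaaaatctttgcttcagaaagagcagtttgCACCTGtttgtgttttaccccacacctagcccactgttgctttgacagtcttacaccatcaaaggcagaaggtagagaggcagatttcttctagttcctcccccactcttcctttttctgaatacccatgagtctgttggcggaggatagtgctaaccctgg
Cd3e: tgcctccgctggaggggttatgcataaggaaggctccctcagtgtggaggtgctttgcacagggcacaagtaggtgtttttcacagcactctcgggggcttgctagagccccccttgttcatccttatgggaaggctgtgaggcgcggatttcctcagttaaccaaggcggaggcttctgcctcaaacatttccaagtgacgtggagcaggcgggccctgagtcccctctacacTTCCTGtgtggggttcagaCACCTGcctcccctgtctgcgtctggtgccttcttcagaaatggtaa
Cd3g: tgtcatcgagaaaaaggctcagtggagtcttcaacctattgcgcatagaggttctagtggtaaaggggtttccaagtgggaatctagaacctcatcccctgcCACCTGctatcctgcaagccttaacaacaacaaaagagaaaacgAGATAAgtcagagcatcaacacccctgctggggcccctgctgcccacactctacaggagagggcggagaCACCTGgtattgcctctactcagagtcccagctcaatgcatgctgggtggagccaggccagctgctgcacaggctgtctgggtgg

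The *Cd3d* window held 1 match to the ETS, 1 to the E box and 1 to the STAT letters. The *Cd3e* window held 1 ETS match, which reads TTCCTG on the strand shown, and 1 E box match. The *Cd3g* window held 2 E box matches and 1 GATA match. No match overlapped another in these windows, and the RUNX letters were in none of the 3. Such letters are common: of 32851 mouse windows of this length, 30.6% held the ETS, 20.2% the E box, 16.8% the RUNX, 11.2% the GATA and 8.3% the STAT letters. A match describes the sequence and is not evidence of a bound site. The other members lie elsewhere, *Cd247* at chr1:165788681-165877277 (plus strand), *Zap70* at chr1:36761798-36782818 (plus), *Cd4* at chr6:124864692-124888221 (minus), *Lck* at chr4:129548344-129573641 (minus), *Lat* at chr7:126363824-126369570 (minus) and *Lcp2* at chr11:34046920-34092295 (plus). A window was found for 8 of the 9 genes, all but *Cd4*.

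Per kilobase of exonic length, which allows levels of different genes to be compared, the 9 genes were abundant in all groups. They stood at percentiles 94.17 to 99.34 of the genes that passed the filter on low counts. *Lck* was the highest and *Cd247* the lowest of the 9 in each group. The length counts all annotated exons of a gene, and the order depends on it. In CPM without length, thymic WT means were 649 for *Cd3e* and 558 for *Lck*, and 223 for *Cd247* and 178 for *Zap70*. In thymic WT samples *Lck* had 191 ± 14.3 CPM per kb (SD, n = 5) and *Cd247* 41.8 ± 4.89. Between them came *Cd3e* (159 ± 6.46), *Cd3d* (147 ± 10.4), *Cd4* (122 ± 10.8), *Cd3g* (112 ± 8.74), *Lat* (90.8 ± 9.08), *Lcp2* (78.0 ± 1.93) and *Zap70* (59.5 ± 3.15). *Cd3e* ranked above *Cd3d* in thymic WT and below it in the other 3 groups. *Zap70* ranked below *Lat* in all groups but splenic KO, where the values were 101 ± 4.82 and 94.6 ± 1.00 CPM per kb (SD, n = 4).

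**Figure D1:**
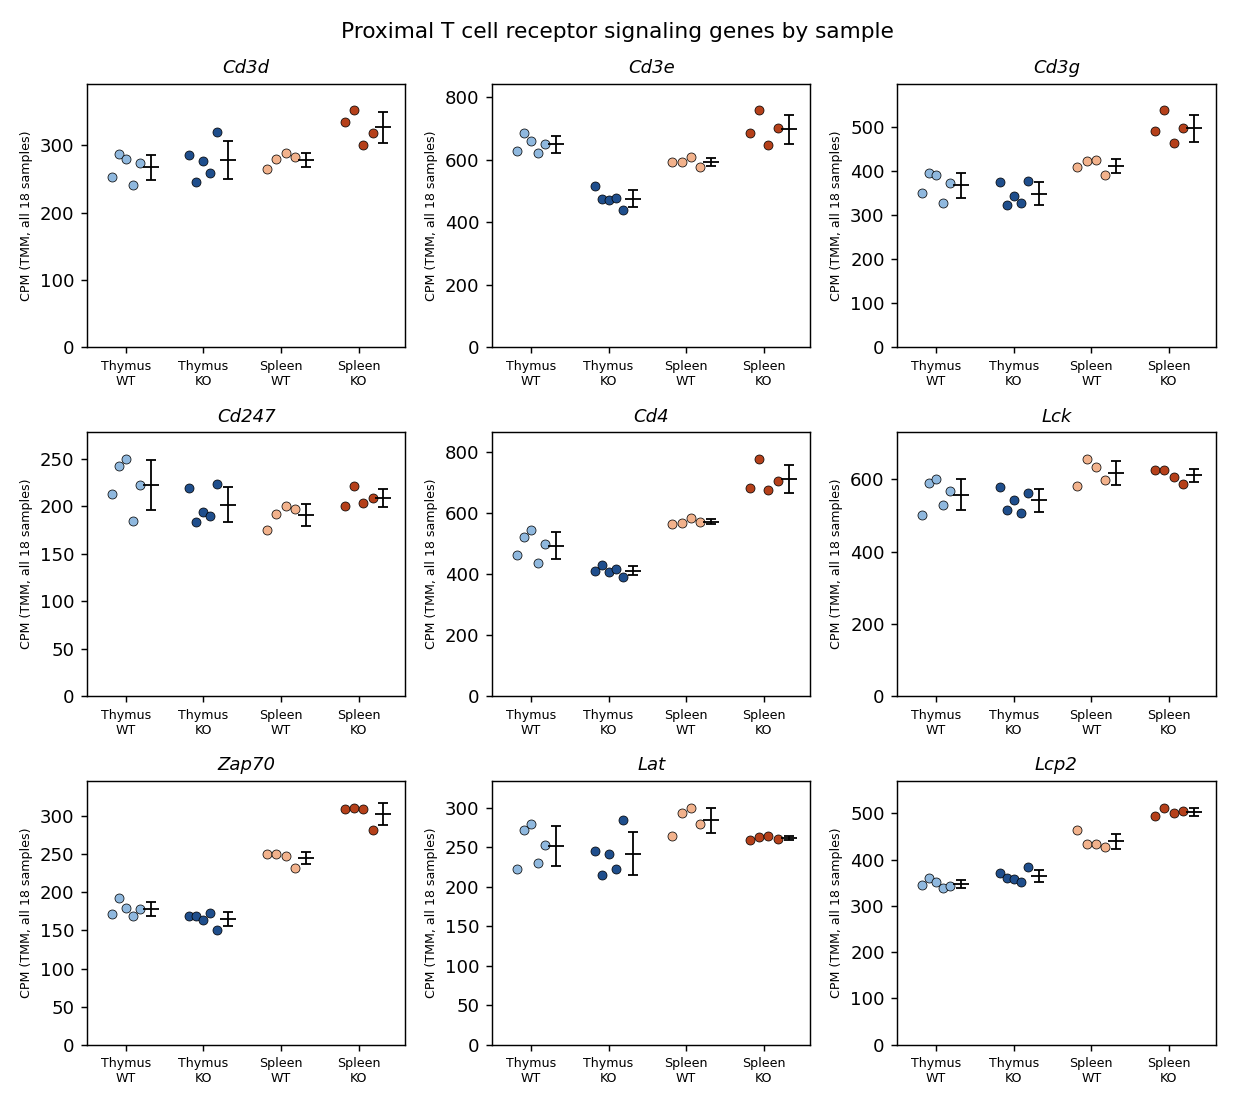
Level of each of the 9 genes in every sample, in CPM after TMM scaling over all 18 samples (vertical axis, linear and starting at 0), by tissue and genotype (horizontal axis). Points are mice, and the bar beside them is the mean with 1 SD (n = 5 thymic, n = 4 splenic per genotype). The thymic KO samples of *Cd3e* (438 to 516 CPM) lie below all thymic WT samples (621 to 686), and the splenic KO samples of *Cd4* (677 to 778) above all splenic WT samples (564 to 582).

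KO and WT Tregs were first compared in the thymus. *Cd3e*, the CD3 chain that pairs with both CD3 gamma and CD3 delta, was the 1 gene of the 9 that passed FDR < 0.01, and it was lower in KO Tregs, at 73.2% of the WT level. Of all genes tested in the thymus, 6.16% passed, 3.17% higher and 2.99% lower. At FDR < 0.05 the number lower was 2, *Cd3e* and *Cd4*, beside 12.3% of all genes higher and 10.9% lower. The median log2 fold change was -0.06 over the 9 genes and -0.0022 over all 16986 genes tested.

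In thymic WT mice 1 to 5, *Cd3e* had 626, 686, 660.2, 621 and 652 CPM. In thymic KO mice 1 to 5 it had 516, 475, 470.0, 476 and 438 CPM. Every KO mouse lay below every WT mouse, as for 9.17% of all genes tested in the thymus (7.20% had every KO mouse above). The means were 649 ± 26.3 and 475 ± 27.7 CPM (SD, n = 5 each), and the log2 fold change was -0.43 (SE 0.0519, adjusted p = 0.000557, edgeR quasi-likelihood test). In these bulk samples, fewer cells that carry a transcript and less RNA per cell cannot be told apart. The call did not depend on the mice that stood apart: the log2 fold change was -0.45 without thymic WT mouse 4 (adjusted p = 0.00156) and -0.44 without KO mice 2 and 4 (adjusted p = 0.000887). *Gm48719*, a gene on the opposite strand that shares exonic bases with *Cd3e*, had 145 to 334 counts per library, at most 3.27% of the *Cd3e* count.

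The neighbours of *Cd3e* did not pass the test in the thymus. *Cd3d*, which encodes CD3 delta, had 253, 287, 279.6, 242 and 274 CPM in WT mice 1 to 5 and 286, 246, 276, 259 and 319.8 CPM in KO mice 1 to 5. The groups overlapped, with a log2 fold change of 0.07 (95% interval -0.08 to 0.23, adjusted p = 0.497). *Cd3g*, which encodes CD3 gamma, had 349, 396, 391, 328 and 372 CPM in WT and 375, 323, 343, 327 and 377 CPM in KO mice 1 to 5. These groups overlapped too, and its log2 fold change was -0.06 (95% interval -0.20 to 0.08, adjusted p = 0.539). With the GC trend of each library removed, the value of *Cd3g*, whose exons have the lowest GC content of the 9 (41.9%), moved to -0.27 (adjusted p = 0.0403), and that of *Cd3e* stayed at -0.43 (adjusted p = 0.000517). *Cd247*, whose product carries most of the ITAMs of the complex, ranged over 184 to 250.1 CPM in WT and 183 to 224 CPM in KO mice, with a log2 fold change of -0.12 (95% interval -0.30 to 0.05). *Pou2f1* and *Gm16565* share exonic bases with *Cd247*, and *Pou2f1*, on the opposite strand, had up to 98.1% as many counts. The strand setting of the counting is not given in the sources used here, so values of *Cd247* are less certain than those of the other CD3 genes.

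Ratios of levels per kb within each sample do not depend on the scaling of the libraries. In thymic WT mice 1 to 5, the *Cd3e* to *Cd3d* ratio was 1.10, 1.06, 1.05, 1.14 and 1.06. In thymic KO mice 1 to 5 it was 0.802, 0.859, 0.756, 0.816 and 0.61. The 2 groups did not overlap, and KO mouse 5 had the lowest ratio of all 18 samples. In the spleen the ratio was 0.947 ± 0.0362 in WT and 0.951 ± 0.0294 in KO mice (SD, n = 4 each), and those groups overlapped. The *Cd3e* to *Cd3g* ratio was 1.42 ± 0.0621 in thymic WT, 1.10 ± 0.098 in thymic KO, 1.15 ± 0.0237 in splenic WT and 1.12 ± 0.00661 in splenic KO mice. These ratios are given without a test because the pairs of genes were chosen after their values were seen. No share over all pairs of genes was computed for them.

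**Figure D2:**
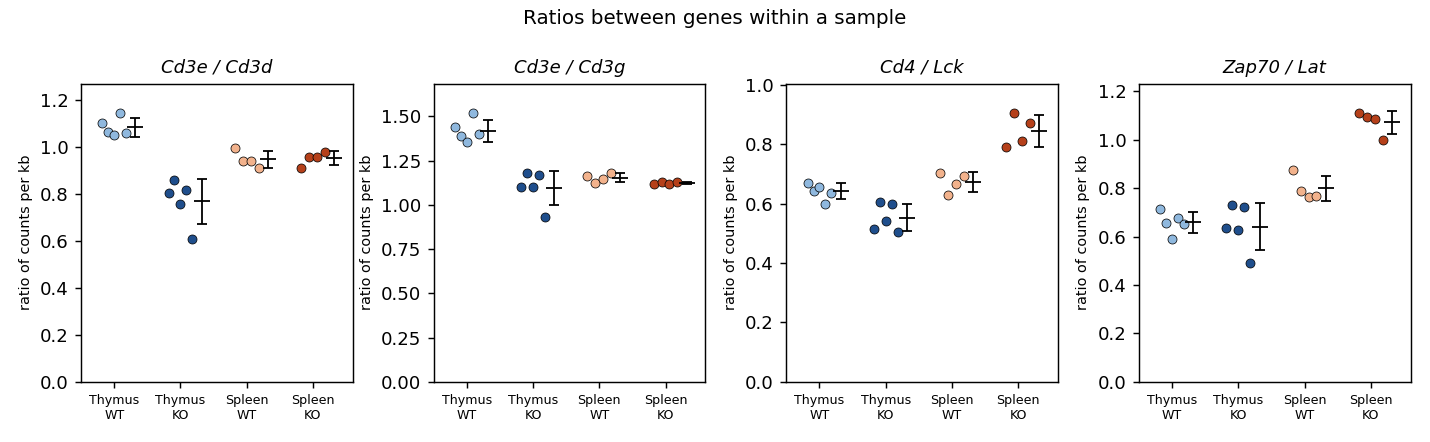
Ratios of 2 genes' counts per kb of exonic length within each sample (vertical axis, linear from 0), by tissue and genotype. Points are mice, and bars are the mean with 1 SD (n = 5 thymic, n = 4 splenic per genotype). The *Cd3e* to *Cd3d* ratio was 1.05 to 1.14 in thymic WT and 0.61 to 0.859 in thymic KO mice, while the *Cd4* to *Lck* and *Zap70* to *Lat* ratios were highest in splenic KO mice.

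*Cd4*, the coreceptor for MHC class II, did not pass FDR < 0.01 in the thymus, although its groups did not overlap. It had 464, 523, 543, 435 and 498 CPM in WT mice 1 to 5 and 411, 429, 406, 417 and 392 CPM in KO mice 1 to 5. The highest KO mouse, at 429 CPM, lay just under the lowest WT mouse, at 435 CPM, which was mouse 4. Its log2 fold change was -0.24 (SE 0.0625, adjusted p = 0.0175). DESeq2 gave an adjusted p of 0.0027 for *Cd4*, and the value with the GC trend removed was -0.15 (adjusted p = 0.0734).

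The kinases and adaptors gave overlapping groups in the thymus. *Lck*, the kinase that starts ITAM phosphorylation, had 502 to 602 CPM in WT and 506 to 579 CPM in KO mice (log2 fold change -0.03, 95% interval -0.16 to 0.10). *Zap70*, which encodes the kinase that docks on the ITAMs, had 169 to 193 and 150.4 to 173 CPM (-0.09, 95% interval -0.20 to 0.02). *Lat* had 222 to 280.0 and 214 to 284 CPM (-0.04, 95% interval -0.22 to 0.14), and *Lcp2* had 339 to 361 and 352 to 385 CPM (0.09, 95% interval -0.01 to 0.18). Adjusted p-values of these 4 genes were 0.167 to 0.774. At their widest, these intervals reached from -0.22 (*Lat*) to 0.18 (*Lcp2*), so that larger changes lie outside them under this processing. They do not cover shifts from other processing. With the GC trend of each library removed, *Lck* (0.11) and *Zap70* (0.06) lay above their intervals, and *Lat* (0.12) and *Lcp2* (0.12) stayed inside theirs.

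In the spleen, 6 of the 9 genes were higher in KO than in WT Tregs and none lower at FDR < 0.01. Of all genes tested in the spleen, 9.45% passed, 5.90% higher and 3.55% lower. At FDR < 0.05 the number was 6 as well, beside 10.2% of all genes higher and 7.03% lower. The 6 were 3 CD3 chains (*Cd3d*, *Cd3e* and *Cd3g*), *Cd4*, *Zap70* and *Lcp2*, with KO levels of 114% (*Lcp2*) to 124.5% (*Cd4*) of WT. In each of the 6, all 4 KO mice lay above all 4 WT mice, as for 11.2% of all genes tested (9.19% had all KO below). The median log2 fold change was 0.23 over the 9 genes and -0.01 over all 17463 tested. *Cd247*, *Lck* and *Lat* did not pass, and their groups overlapped.

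The 3 clustered CD3 genes had like values in the spleen. *Cd3g* had 409, 422, 426 and 392 CPM in WT mice 1 to 4 and 490.3, 539, 463 and 497 CPM in KO mice 1 to 4, a log2 fold change of 0.27 (SE 0.0550, adjusted p = 0.0026). *Cd3e* had 592, 592, 610.0 and 578 CPM in WT and 685, 759, 646 and 701 CPM in KO mice (0.24, SE 0.0551, adjusted p = 0.00724). *Cd3d* had 264, 279.8, 288 and 282 CPM in WT and 335, 353, 300.2 and 318 CPM in KO mice (0.23, SE 0.0559, adjusted p = 0.00925). KO mouse 2 was the highest and mouse 3 the lowest of the KO mice for all 3 genes. *Cd247* had 175, 191, 201 and 197 CPM in WT and 200.1, 221, 204 and 209 CPM in KO mice, with KO mouse 1 inside the WT range and a log2 fold change of 0.13 (95% interval 0.01 to 0.24, adjusted p = 0.121).

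*Cd4* and *Zap70* had the largest changes of the 9 in the spleen. *Cd4* had 564, 569, 582 and 570.2 CPM in WT mice 1 to 4 and 683, 778, 677 and 707 CPM in KO mice 1 to 4. Its log2 fold change was 0.32 (SE 0.0537, adjusted p = 0.000675), and the gap from the highest WT to the lowest KO mouse was wider than the whole WT range. *Zap70* had 249.9, 249.9, 248 and 233 CPM in WT and 309.8, 311, 309.9 and 281 CPM in KO mice (0.31, SE 0.0506, adjusted p = 0.000537). Mouse 4 was the low sample of both *Zap70* groups, and the groups stayed apart with it. The calls of *Cd4* and *Zap70* held with each splenic mouse left out in turn, with adjusted p-values of at most 0.0041.

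*Lck*, which acts between CD4 and ZAP-70, showed no detectable change in the spleen. It had 582, 657, 635 and 597 CPM in WT and 627, 625.5, 608 and 588 CPM in KO mice, and all KO mice lay inside the WT range (log2 fold change -0.01, 95% interval -0.12 to 0.10, adjusted p = 0.908). The 2 adaptors differed from each other. *Lcp2* had 463, 435, 434 and 426 CPM in WT and 493, 512, 501 and 505 CPM in KO mice, a log2 fold change of 0.20 (SE 0.0477, adjusted p = 0.00942). *Lat* had 264, 293, 300.03 and 279.8 CPM in WT and 258, 263, 264 and 260.4 CPM in KO mice, of which 3 lay below all WT mice (-0.12, 95% interval -0.22 to -0.01, adjusted p = 0.12). With each splenic mouse left out in turn, the log2 fold change of *Lat* was -0.16 to -0.09 and it did not pass.

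The number of genes called in the spleen depended on single libraries, since *Cd3d*, *Cd3e* and *Lcp2* lay close to the threshold. It was 2 without WT mouse 4, 3 without any one of WT mouse 2 or 3 or KO mouse 1, 2 or 4, 4 without WT mouse 1 and 5 without KO mouse 3, and 3 with all 18 samples in 1 fit. The log2 fold changes themselves stayed positive, at 0.19 to 0.27 for *Cd3d*, 0.19 to 0.27 for *Cd3e*, 0.23 to 0.31 for *Cd3g* and 0.18 to 0.22 for *Lcp2*. Summed markers of gamma delta and NK cells in the spleen were 9.13 to 12.6 CPM in WT and 14.2 to 21.5 CPM in KO mice. Of these 5 markers 3 were tested. *Klrb1c* was called higher (log2 fold change 1.90) and *Eomes* was not called (1.00, adjusted p = 0.0187). The gamma delta gene *Trdc* did not rise with the sum (-0.24, adjusted p = 0.394). The other 2 were at 3 or fewer counts in all libraries of each splenic group. Summed myeloid markers were 10.9 to 17.8 CPM in WT and 16.2 to 22.4 CPM in KO mice. Of 3 tested, *Lyz2* was called higher (1.03), while *Csf1r* (-0.24, adjusted p = 0.41) and *Adgre1* (-0.82, adjusted p = 0.151) were not called. Summed B cell markers were 20.7 to 22.4 CPM in WT and 20.1 to 23.9 CPM in KO mice. Of 3 tested, *Pax5* was called higher (1.04), while *Cd79a* (-0.45, adjusted p = 0.032) and *Cd79b* (0.02, adjusted p = 0.901) were not called. The part of such other cells in the splenic differences was not tested.

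**Figure D3:**
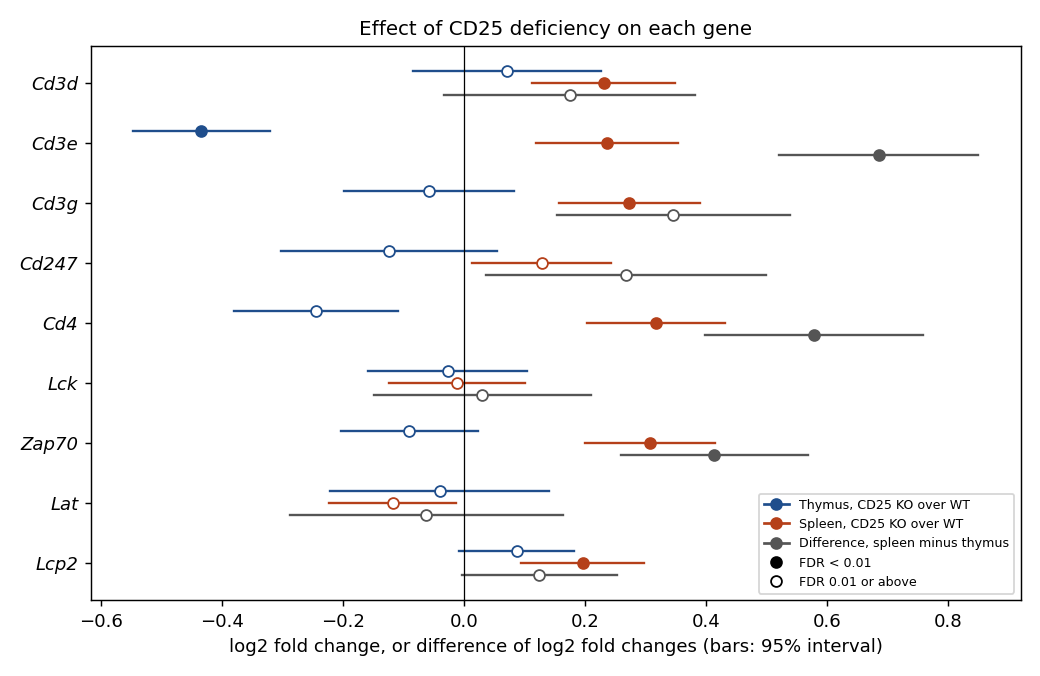
Log2 fold change of KO over WT in the thymus and the spleen, and the difference between them (spleen minus thymus), for the 9 genes (horizontal axis, log2 scale). Points are estimates, lines are 95% intervals, and filled points passed FDR < 0.01 in the edgeR quasi-likelihood test. *Cd3e* lies at -0.43 for the thymus and at 0.24 for the spleen, and all 3 values of *Lck* lie near 0.

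Whether KO and WT Tregs differed by the same amount in the 2 tissues was tested as an interaction in 1 fit of all 18 samples. Of the 9 genes, 3 passed and all 3 had the more positive difference in the spleen (*Cd3e*, *Cd4* and *Zap70*), beside 6.98% of all genes, 4.50% in that direction and 2.49% in the other. The difference was 0.69 on the log2 scale for *Cd3e* (SE 0.0788, adjusted p = 9.91e-06), which fell in the thymus and rose in the spleen. It was 0.58 for *Cd4* (SE 0.0865, adjusted p = 0.000173) and 0.41 for *Zap70* (SE 0.0744, adjusted p = 0.000916). These 3 calls held under every alternative and with each of the 18 mice left out. *Cd3g* had a difference of 0.35 (adjusted p = 0.0147), which DESeq2 called (adjusted p = 0.00208). It was also called with the GC trend removed (0.48, adjusted p = 0.00543), with at least 10 counts required in every sample (0.34, adjusted p = 0.00945), without thymic WT mouse 4 (0.38, adjusted p = 0.00612) and without thymic KO mouse 5 (0.37, adjusted p = 0.00769). *Cd247* (0.27), *Cd3d* (0.17), *Lcp2* (0.12), *Lck* (0.03) and *Lat* (-0.06) did not pass. For *Lck* the 95% interval was -0.15 to 0.21 and for *Lat* -0.29 to 0.16.

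The WT samples alone give the level of each gene in splenic against thymic Tregs. *Zap70* was higher in the spleen by 0.46 on the log2 scale (SE 0.0524, adjusted p = 3.45e-07), *Lcp2* by 0.34 (SE 0.0433, adjusted p = 1.78e-06) and *Cd4* by 0.21 (SE 0.061, adjusted p = 0.00599). Thus 3 of the 9 were higher and none lower in the spleen, beside 40.4% of all genes, 21.0% higher and 19.5% lower. At FDR < 0.05 the numbers were 5 and 1, beside 27.1% and 25.4% of all genes. The call of *Cd4* was lost with 15 of the 18 mice left out singly, thymic or splenic, with values of 0.14 to 0.24 and adjusted p-values up to 0.0496. The lowest of these values was without thymic WT mouse 4. The other 6 genes did not pass, with log2 differences from -0.22 (*Cd247*, adjusted p = 0.0234) to 0.18 (*Lat*, adjusted p = 0.0559).

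Over all 4 groups, the order of the group means differed between genes. *Cd4* rose from thymic KO (411 ± 13.8 CPM) through thymic WT (493 ± 43.7) and splenic WT (571 ± 7.89) to splenic KO (711 ± 46.3), and no neighbours in that order overlapped. *Zap70* followed the same order, with overlap only between the thymic groups, at 165 ± 8.87 and 178 ± 9.41 CPM. *Cd3e* ran from thymic KO (475 ± 27.7) to splenic WT (593 ± 13.3), thymic WT (649 ± 26.3) and splenic KO (698 ± 47.0), and only the last 2 overlapped. For *Cd3g* and *Lcp2*, splenic KO mice lay above all mice of the other 3 groups, and for *Cd3d* they overlapped only with thymic KO mice. For *Cd247*, *Lck* and *Lat*, each group overlapped with its neighbour in the order.

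Ratios within samples were also taken for pairs of kinases, adaptors and the coreceptor. The *Cd4* to *Lck* ratio per kb was 0.673 ± 0.0336 in splenic WT and 0.844 ± 0.0527 in splenic KO mice, against 0.641 ± 0.0269 and 0.553 ± 0.0459 in the thymus. The *Zap70* to *Lat* ratio was 0.799 ± 0.0516 in splenic WT and 1.07 ± 0.0486 in splenic KO mice, against 0.658 ± 0.0445 and 0.641 ± 0.0969 in the thymus. The *Lcp2* to *Lat* ratio was 0.963 ± 0.0854 and 1.19 ± 0.0149 in the spleen, and 0.865 ± 0.0738 and 0.945 ± 0.0759 in the thymus. In the spleen, the groups did not overlap for any of these 3 ratios, whose pairs were likewise chosen after their values were seen. Each sets a gene called in the spleen over 1 that was not called, and no share over all pairs of genes was computed.

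Some pairs of the 9 genes varied together among mice of the same group, and others did not. Over the 18 samples, after subtraction of each group's mean log2 CPM, *Cd3d* and *Cd3g* had a Pearson r of 0.881, *Cd3g* and *Cd247* 0.87, and *Lck* and *Lat* 0.838. *Cd3e* followed *Cd4* (0.709) more closely than its neighbour *Cd3d* (0.288), and *Zap70* had r = -0.08 with *Cd3d*. Of 9461 genes above a mean log2 CPM of 3, those most like *Cd3g* were the TCR constant genes *Trbc2* (0.934) and *Trac* (0.925). The most like gene was *Ormdl3* for *Cd3d* (0.928), *Wdr1* for *Cd3e* (0.933), *Ppp1r13b* for *Cd247* (0.952), *Jpt1* for *Cd4* (0.935), *Rassf2* for *Lck* (0.863), *Sufu* for *Zap70* (0.928), *Hp1bp3* for *Lat* (0.898) and *Anapc4* for *Lcp2* (0.814). For *Lck* the next was *Lat*, itself 1 of the 9. These values are descriptions of 18 samples that share library scaling within a sample.

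Another 48 genes of the pathway, listed by role, were all tested in both tissues. In the thymus 1 was higher (2.08%) and none lower at FDR < 0.01, beside 3.17% and 2.99% of all genes. At an unadjusted p below 0.05, 11 were higher (22.9%) and 10 lower (20.8%), beside 19.4% and 18.5% of all genes. The 1 was *Ptprc*, which encodes the phosphatase CD45 that acts on LCK, at 2113 ± 249 CPM in WT and 3051 ± 512 CPM in KO mice (log2 fold change 0.54, SE 0.117, adjusted p = 0.00889). Every KO mouse, at 2554 to 3906 CPM, lay above every WT mouse, at 1764 to 2405 CPM. The call of *Ptprc* was lost with the GC trend removed (0.25, adjusted p = 0.0282) and without any one of thymic WT mice 2, 3, 4 and 5 or KO mice 1, 2 and 3, with values of 0.44 to 0.60 over all mice left out and adjusted p-values up to 0.0239. None of the 3 TCR constant genes, the 20 adaptors and scaffolds (which included *Cd2*, *Cd5* and *Cd6*) or the 13 effectors of the LAT signalosome passed in the thymus.

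In the spleen, 8 of the 48 pathway genes were higher (16.7%) and 4 lower (8.33%), beside 5.90% and 3.55% of all genes. Their median log2 fold change was 0.02, and that of all genes was -0.01. The TCR alpha constant gene *Trac* was higher (594 ± 19.7 CPM in WT, 727 ± 44.2 in KO, log2 fold change 0.29, adjusted p = 0.00141). *Trbc1* (0.30, adjusted p = 0.0484) and *Trbc2* (0.15, adjusted p = 0.112), near-identical genes that can share reads, did not pass. Of 12 kinases and regulators, 1 was higher and 1 lower (8.33% each). *Ptpn22*, a phosphatase that opposes LCK and ZAP-70, was higher (0.34, adjusted p = 0.000554) and *Txk*, a Tec family kinase, was lower (-0.51, adjusted p = 0.000416). *Txk* had 78.0 to 82.2 CPM in WT and 45.3 to 64.6 CPM in KO mice.

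Of 20 adaptors and scaffolds, 4 were higher and 1 lower in the spleen, beside 5.90% and 3.55% of all genes. The higher ones included *Sla*, an adaptor that lowers TCR surface levels (0.43, adjusted p = 4.94e-05), *Themis*, an adaptor needed for thymocyte selection (0.34, adjusted p = 0.00179), and *Lax1*, a membrane adaptor related to LAT (0.31, adjusted p = 0.00193). The lower one was *Grap2*, which encodes GADS, the link between LAT and SLP-76 (-0.44, SE 0.055, adjusted p = 4.54e-05). *Grap2* had 199.7, 211, 222 and 220.3 CPM in WT and 168, 146, 159 and 155 CPM in KO mice. All KO mice lay below all WT mice, while its partner *Lcp2* lay above in all KO mice.

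Of 13 effectors, 2 were higher and 2 lower in the spleen (15.4% each, beside 5.90% and 3.55% of all genes). *Malt1*, which encodes a paracaspase upstream of NF-kappa B, had 186, 161, 165 and 154 CPM in WT and 249, 332, 316 and 265 CPM in KO mice. Its log2 fold change of 0.80 (SE 0.0832, adjusted p = 8.35e-06) was the largest of the 48 genes in the spleen, and *Bcl10*, which encodes an adaptor upstream of NF-kappa B, was also higher (0.28, adjusted p = 0.00659). *Rasgrp1*, the exchange factor that links diacylglycerol to Ras, was lower (416 ± 11.2 CPM in WT, 327 ± 15.1 in KO, -0.34, adjusted p = 0.000188). *Dgka*, which encodes a kinase that consumes diacylglycerol, was lower too (-0.28, adjusted p = 0.00333). The calls of *Malt1*, *Grap2*, *Sla*, *Txk*, *Rasgrp1*, *Ptpn22*, *Themis* and *Trac* held with each mouse left out. *Bcl10* lost its call without any one of WT mice 1, 2 and 3 or KO mice 1, 2 and 4, *Dgka* without WT mouse 2 or 3 or KO mouse 2 or 4, and *Lax1* without WT mouse 3 or 4. The highest adjusted p-values were 0.0306 for *Bcl10*, 0.018 for *Dgka* and 0.0112 for *Lax1*. With all 18 samples in 1 fit, 3 of the 48 were called higher, and *Ptpn22* (adjusted p = 0.0691), *Themis* (0.0851), *Trac* (0.0356) and *Bcl10* (0.0103) were not.

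**Figure D4:**
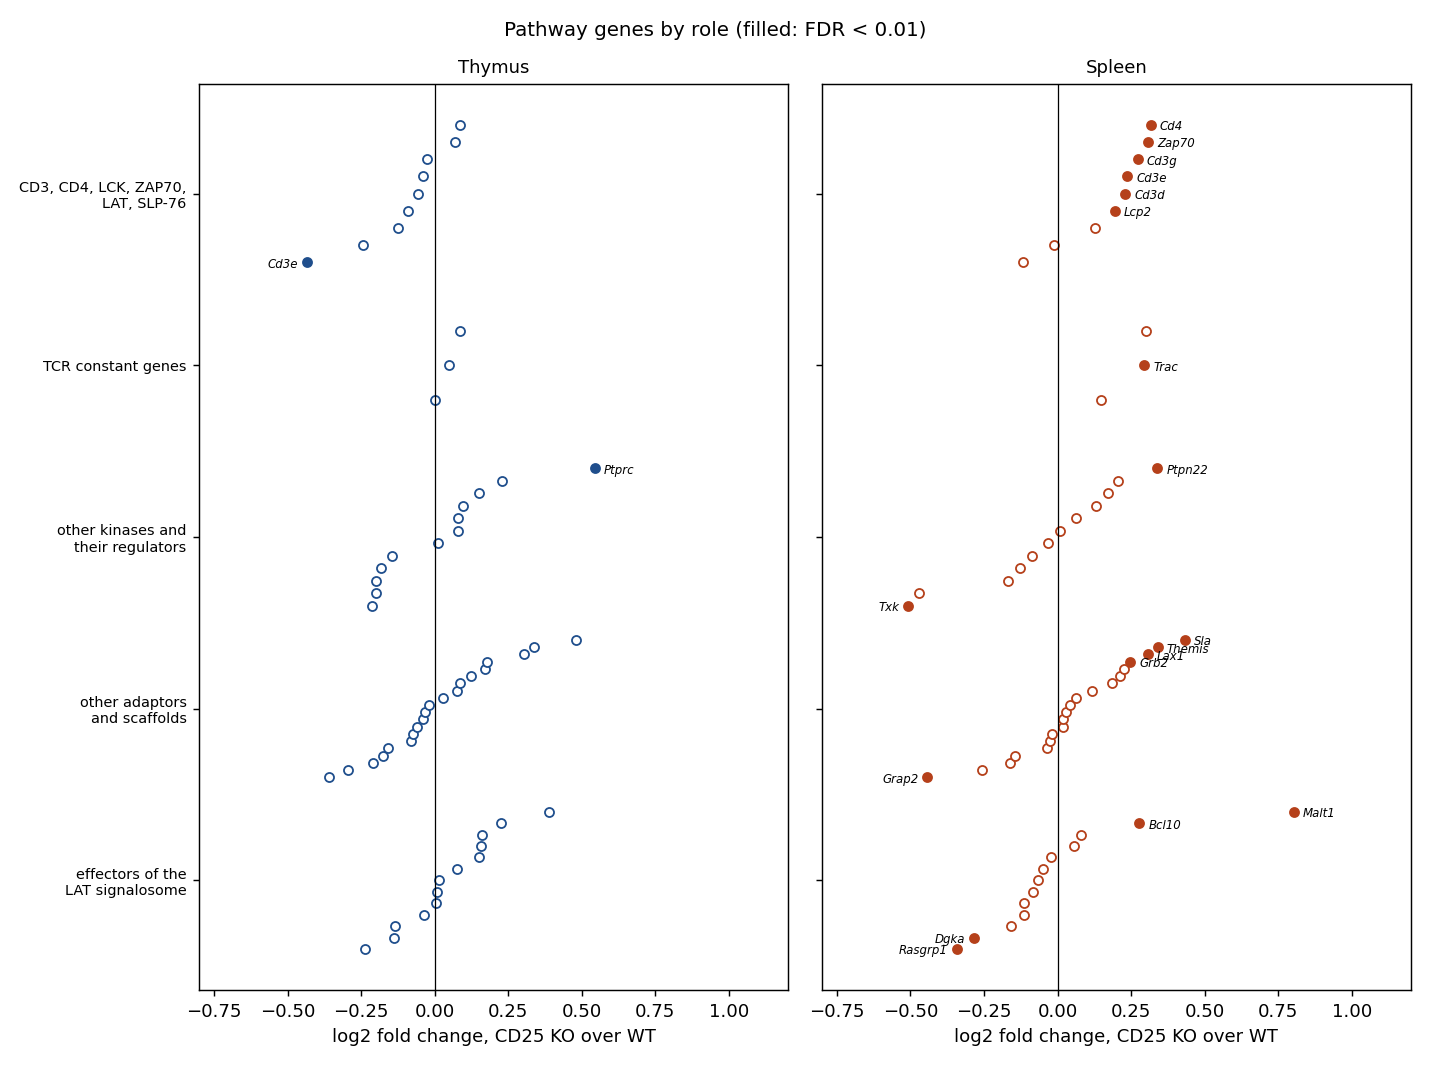
Log2 fold change of KO over WT (horizontal axis) for the 9 genes and the 48 other pathway genes, grouped by role (vertical axis), in the thymus and the spleen. Each point is 1 gene, ordered by its value within a role. Filled points passed FDR < 0.01 and carry the gene symbol. In the thymus *Cd3e* (-0.43) and *Ptprc* (0.54) are filled, and in the spleen filled points stand on both sides of 0 from *Txk* (-0.51) to *Malt1* (0.80).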

How the data were processed

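RNA-seq was run on Foxp3+ Tregs from 18 mice in 4 groups, assigned from the sample labels. The authors aligned reads to GRCm38 with STAR 2.5.0b and counted them per GENCODE M13 gene with featureCounts 1.5.0, and the deposited table holds these raw counts without normalization. The strand setting is not given in the sources used here. Symbols, coordinates and exonic lengths came from GENCODE M21, in which 50376 of 50600 identifiers matched.

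Within each tissue, genes kept by filterByExpr were scaled by TMM and tested by edgeR's quasi-likelihood test (edgeR 4.0.16, R 4.3.3) with Benjamini-Hochberg adjustment over all genes tested, at FDR < 0.01, the study's threshold. The study's tool, DESeq2 (1.42.0), was an alternative. Interaction and tissue contrasts came from 1 fit of 18 samples. Named genes were the 9 members, up to 3 called genes per pathway list and direction with the largest fold changes, and the 2 most alike genes per member. Members and lists were chosen with earlier results of these data known. The scripts were tested on simulated counts. Alternatives were RLE and upper-quartile scaling, DESeq2, 2 other filters on low counts, removal of each library's GC trend, FDR < 0.05, 1 fit of all 18 samples, the thymic mouse number as a block and leaving out each mouse. Leaving out CD25 KO mice 2 and 4 was added after *Il2ra* was seen.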

Additional observations from a re-analysis of the deposited data

Results flagged for a closer look

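*Zap70* had an outlying sample in both splenic groups, in which the gap to the nearest mouse was large beside the range of the group (Dixon's test). CD25 KO mouse 4 had 281 CPM, with a gap of 0.953 of the range, and WT mouse 4 had 233 CPM, with a gap of 0.882. Both were the lowest of their group. These 2 were found among 36 groups of samples tested, where chance flags about 1 in 20.

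The difference of KO from WT Tregs was unlike in thymus and spleen for *Cd3e* (0.69 on the log2 scale, spleen minus thymus), *Cd4* (0.58) and *Zap70* (0.41), each by the interaction test at FDR < 0.01. Tissue, mouse model, age, tamoxifen and the date in the column names cannot be told apart, nor, in the thymus, can loss of CD25, the reporter line, Cre and the splenocyte transfer.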

How the results depend on the processing

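The thymic call of *Cd3e* and the splenic calls of *Cd4* and *Zap70* held under every alternative and with each mouse left out, and no called value changed sign. The number of the 9 genes lower in the thymus was 1, and 2 (with *Cd4*) under DESeq2, FDR < 0.05 and all 18 samples in 1 fit, and 1 to 2 with each mouse left out. The number higher in the spleen was 6, 3 with all 18 samples in 1 fit, and 2 to 5 with each mouse left out. *Cd3d* lost its splenic call under upper-quartile scaling, *Cd3g* with the GC trend removed and *Lcp2* under upper-quartile scaling and without a filter. In splenic against thymic WT, 3 were higher and 0 lower, 5 and 1 at FDR < 0.05, and 2 to 3 and 0 to 1 with each mouse left out. Of the 48 pathway genes, 1 was higher in the thymus, 2 under upper-quartile scaling, 5 under DESeq2, 2 without a filter, 3 with the GC trend removed, 5 at FDR < 0.05, 3 with all 18 samples, 3 without KO mice 2 and 4, and 0 to 2 with each mouse left out. None was lower, but 2 were under DESeq2, 5 at FDR < 0.05 and 3 with all 18 samples. In the spleen 8 were higher and 4 lower, 14 and 7 at FDR < 0.05, 3 higher with all 18 samples, and 6 to 9 higher and 3 to 5 lower with each mouse left out. In the thymus, *Lck*, *Zap70* and *Lat*, none of them called, had values of 0.11, 0.06 and 0.12 with the GC trend removed. Across all genes the thymic log2 fold change followed GC content (Spearman rho -0.407 over 16945 genes), less so in the spleen (-0.165 over 17423). Upper-quartile scaling moved the share of calls that were higher from 51.5% to 64.7% in the thymus and from 62.4% to 54.5% in the spleen. The cause of these changes was not tested.

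Thymic mouse numbers are shared by WT and KO samples. The deviations of same-numbered mice had correlations of -0.357 to 0.0568, which gave no sign that the numbers pair the samples but cannot exclude it. With the replicate block, *Cd3e* was at -0.44 (adjusted p = 0.00854), 1 of the 9 genes was lower, and 0 of the 48 pathway genes were higher, *Ptprc* having an adjusted p of 0.0276.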
